A study of Homo sapiens with 38 samples.

Results

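The 10 genes described here encode proteins that the liver secretes into blood plasma: ALB, TTR, RBP4, AHSG, AMBP, HP, ORM1, ORM2, SERPINA1 and SERPINA3. They were found on the arrays through the transcript accession that the scanner files give for each probe, which matched all 10 genes with 12 of the 34127 probes, among 19720 genes that could be named. SERPINA3 was represented by 3 probes and the other genes by 1 each. The cells were A549, a line derived from a tumour of the lung, and were exposed to fumed silica NPs in medium without serum. Total RNA was hybridised on 38 single-dye arrays. At 24 h there were 4 arrays each of cells exposed to 0.1 and 1.0 μg/cm2 with 4 control arrays in common, 4 arrays at 1.5 μg/cm2 with 4 controls of their own, and 3 arrays each at 3.0 and 6.0 μg/cm2 with 3 controls in common. At 72 h there were 3 arrays each at 3.0 and 6.0 μg/cm2, again with 3 controls in common. Control cells received the same medium without NPs, so all groups, controls included, were deprived of serum. All arrays come from 1 cell line. The titles number the arrays of a group as biological replicates, the protocol speaks of 3 cultures where the lower doses have 4 arrays, and p-values measure the spread between these arrays, part of which may be technical.

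Albumin (ALB) carries fatty acids and hormones in plasma, transthyretin (TTR) carries thyroxine and holds retinol-binding protein (RBP4) in the circulation, AHSG is fetuin-A, an inhibitor of mineral deposition, and AMBP is the precursor of alpha-1-microglobulin and of bikunin. Haptoglobin (HP) binds free haemoglobin, ORM1 and ORM2 encode orosomucoid, and SERPINA1 and SERPINA3 inhibit serine proteases such as neutrophil elastase and cathepsin G. In the liver, inflammation and IL-6 raise HP, the orosomucoids and both serpins, the positive acute-phase proteins, whereas ALB, TTR, RBP4 and AHSG fall and are called negative acute-phase proteins. Their genes are driven in hepatocytes by liver-enriched transcription factors of the HNF1, HNF4, FOXA and C/EBP families.

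RefSeq promoter entries (GRCh38.p14) were at hand for 7 of the 10 genes. The 150 bases that precede the start site are shown for 5 of them, with the most downstream start where RefSeq lists several. They are written 5′ to 3′ along the gene. Capitals mark matches, on either strand, to an HNF1 half-site (GTTAAT), a C/EBP motif (TTGCNNAA) or a TATA box (TATAAA). The bases before ORM1 and SERPINA3 were searched too but are not shown, and those before SERPINA3 held none of these matches.
ALB, chr4:73404137-73404286, plus strand: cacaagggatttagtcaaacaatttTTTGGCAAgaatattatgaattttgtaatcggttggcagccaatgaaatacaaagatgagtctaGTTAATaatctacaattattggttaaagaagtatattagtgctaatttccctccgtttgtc
RBP4, chr10:93601236-93601385, minus strand: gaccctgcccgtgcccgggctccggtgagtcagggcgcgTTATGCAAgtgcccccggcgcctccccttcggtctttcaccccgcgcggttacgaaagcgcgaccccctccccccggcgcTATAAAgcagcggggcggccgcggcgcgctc
AHSG, chr3:186612910-186613059, plus strand: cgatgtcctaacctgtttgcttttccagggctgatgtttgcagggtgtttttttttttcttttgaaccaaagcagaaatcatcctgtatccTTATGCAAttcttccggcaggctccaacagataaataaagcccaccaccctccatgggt
AMBP, chr9:114078301-114078450, minus strand: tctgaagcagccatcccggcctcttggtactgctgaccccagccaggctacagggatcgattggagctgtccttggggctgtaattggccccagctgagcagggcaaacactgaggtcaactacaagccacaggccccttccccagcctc
SERPINA1, chr14:94388603-94388752, minus strand: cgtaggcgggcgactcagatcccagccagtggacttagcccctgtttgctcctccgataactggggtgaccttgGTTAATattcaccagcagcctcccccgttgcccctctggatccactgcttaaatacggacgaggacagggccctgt

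The HNF1 half-site was found in the windows of ALB and SERPINA1, 2 of 7 genes, and in 3.52% of all 35116 promoter windows of this length. The C/EBP motif was found in ALB, AHSG and RBP4, 3 of 7, and in 5.02% of all windows. The TATA box was found in RBP4 and ORM1, against 6.71% of all windows. No match to a STAT motif (TTCNNNGAA, 3.66% of all windows), a FOXA motif (TGTTTAC, 1.73%) or an HNF4 motif (CAAAGTCCA, 0.222%) was present in any of the 7 windows, which says only that these letters are not there. ORM1 and ORM2 lie next to each other on chromosome 9 with AMBP 2 protein-coding genes away from ORM1, and SERPINA1 and SERPINA3 lie on chromosome 14 with 5 other genes of their family between them. The other members are on chromosomes of their own.

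Levels are log2 processed signals relative to the 75th percentile of their array, so that a probe at that percentile has a level of 0. Levels are compared only within a probe, except in the summed levels of markers. That percentile ranged from 724 to 3214 signal units over the arrays, and the scanner software placed 54.3% to 73.5% of the probes of an array well above background. AMBP, RBP4, SERPINA1 and SERPINA3 were well above background on all 38 arrays, TTR and AHSG on 37, HP and ORM1 on 36, but ALB on only 15 and ORM2 on 13. A gene was called where limma gave a Benjamini-Hochberg adjusted p under 0.05, over all probes tested, together with a 1.5-fold difference or more. Of marker genes, all 5 for epithelium were well above background on all 38 arrays, as were 3 of 8 for alveolar type II cells (SFTPC, ABCA3 and NAPSA), whereas NKX2-1, the lung transcription factor, reached that level on 1 array and SFTPB on 2. Of 10 hepatocyte markers outside the list, ASGR1 and CPS1 were well above background on all arrays and CYP2E1 on none. The arrays of exposed cells at 72 h were scanned on another day than their controls, so scan day and exposure cannot be told apart at 72 h, except between both doses, which share their day.

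AHSG, AMBP and RBP4 were lower at 6.0 μg/cm2 at both times, HP, SERPINA1, SERPINA3 and TTR were called lower at 72 h and not at 24 h, ALB and ORM2 were tested and lower at 72 h, and ORM1 was called at neither time. At 6.0 μg/cm2 and 72 h, 9 of the 10 genes were called lower and none higher, whereas 10.6% of all 21857 probes tested were called lower, 6.52% higher and 17.1% in either direction. At 3.0 μg/cm2 and 72 h, 6 of 10 were called lower, against 3.84% of all probes lower, 2.08% higher and 5.92% in either direction. At 24 h, 3 of 8 genes tested were lower at 6.0 μg/cm2 (5.35% of all probes lower, 3.94% higher, 9.29% in either direction), and at 3.0 μg/cm2 1 of 8 was lower and 1 higher (1.37% of all probes lower, 1.5% higher, 2.87% in either direction). ALB and ORM2 at both doses, and TTR at 6.0 μg/cm2, entered the test at 72 h only through the controls, the group in which all their arrays were well above background, and this favours a lower value in exposed cells. Of the genes with all arrays of both groups well above background, 6 of 7 were called lower at 6.0 μg/cm2 and 5 of 8 at 3.0 μg/cm2. Less RNA per cell and fewer cells with the transcript cannot be told apart in these bulk samples. Markers of other kinds moved too at 6.0 μg/cm2. Of 5 epithelial markers, CDH1 (2.33-fold at 24 h and 2.69-fold at 72 h) and EPCAM (1.74-fold and 2.26-fold) were lower at both times and KRT19 was higher at 24 h (1.72-fold), of 5 alveolar type II markers tested SFTPC was lower at 24 h (1.75-fold) and SFTPD at 72 h (1.98-fold), and CAV1 of type I cells was higher at 72 h (1.90-fold). SFTPD entered the test at 72 h only through the controls, which favours a lower value. Of 3 fibroblast markers only COL1A1 was tested, 3.61-fold and 3.15-fold lower, and of 3 leukocyte markers tested CD68 was higher (4.89-fold and 1.52-fold), CD14 lower (1.62-fold and 2.63-fold) and PTPRC lower at 24 h (1.55-fold). The summed level of the hepatocyte markers, in multiples of the 75th percentile, ranged from 1.96 to 2.29 on the 24 h controls, 1.33 to 1.52 at 6.0 μg/cm2 and 24 h, 2.86 to 3.38 on the 72 h controls and 1.45 to 1.66 at 6.0 μg/cm2 and 72 h. That of the epithelial markers ranged from 324 to 353, 305 to 323, 368 to 416 and 291 to 335 in the same order. These sums mostly follow their brightest probes and do not describe each marker list as a whole. Among hepatocyte markers CPS1 had a mean log2 level of 1.03, and ASGR1, the next, −2.90. Among epithelial markers KRT18 (7.81), KRT8 (5.83) and KRT19 (4.88) stood far above CDH1 (0.43) and EPCAM (0.35). The part of these markers in the results was not tested. The plot of the levels by array shows the members in the 18 arrays at the higher doses and their controls.

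**Figure D1:**
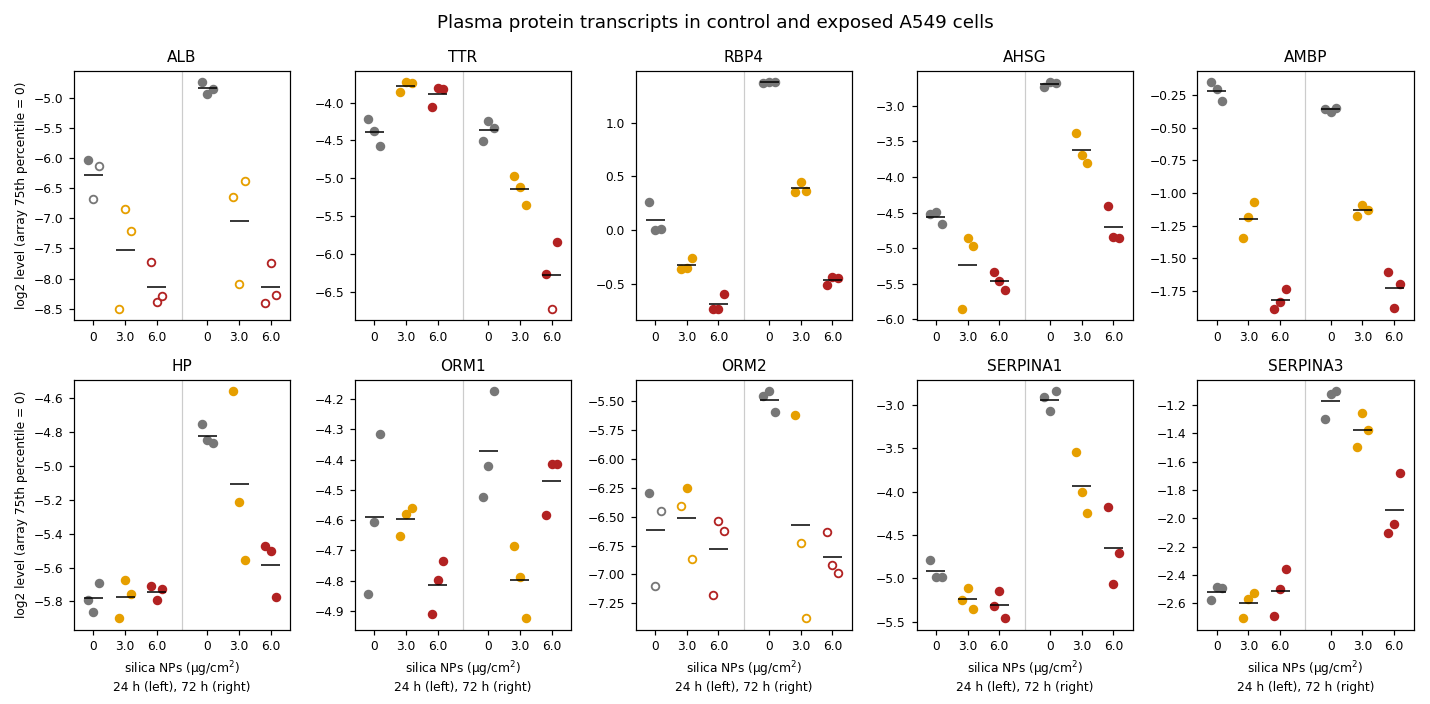
Log2 level of each of the 10 transcripts (array 75th percentile at 0) on the 3 arrays of each group, for 0 (control), 3.0 and 6.0 μg/cm2 of silica NPs at 24 h (left of the line) and 72 h (right). Points are arrays, open where the probe was not well above background, and bars are group means. At 72 h the 3 arrays at 6.0 μg/cm2 lie below the 3 controls for all genes but ORM1. How many of all probes are separated in this way was not counted.

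In the controls themselves, 7 of the 10 genes were higher at 72 h than at 24 h and none was lower, against 13.4% of all 22130 probes called higher, 6.71% lower and 20.1% in either direction. The median difference of the 10 genes was 1.21 on the log2 scale, and that of all probes 0.07. The rise was 3.95-fold for SERPINA1, 3.65-fold for AHSG, 2.54-fold for SERPINA3, 2.44-fold for RBP4 and 1.94-fold for HP. ALB (2.71-fold) and ORM2 (2.19-fold) were also called higher, but were well above background on only 1 of the 3 controls at 24 h and entered the test through the 72 h group, which favours a higher value. Of the genes with all arrays of both groups well above background, 5 of 8 were higher. TTR (0.03, SE 0.11), AMBP (−0.14, SE 0.06) and ORM1 (0.22, SE 0.15 on the log2 scale) were not called. The same 72 h controls enter this comparison and both comparisons of exposed with control cells at 72 h, so the rise in controls and the lower values in exposed cells are not independent. With normexp background correction the calls were 4 of 10 (AHSG, SERPINA1, SERPINA3 and RBP4), and the values of ALB (0.48), ORM2 (0.34) and HP (0.51) fell under the fold threshold. The series matrix, which holds uncorrected median signals, also gave 4 calls.

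**Figure D2:**
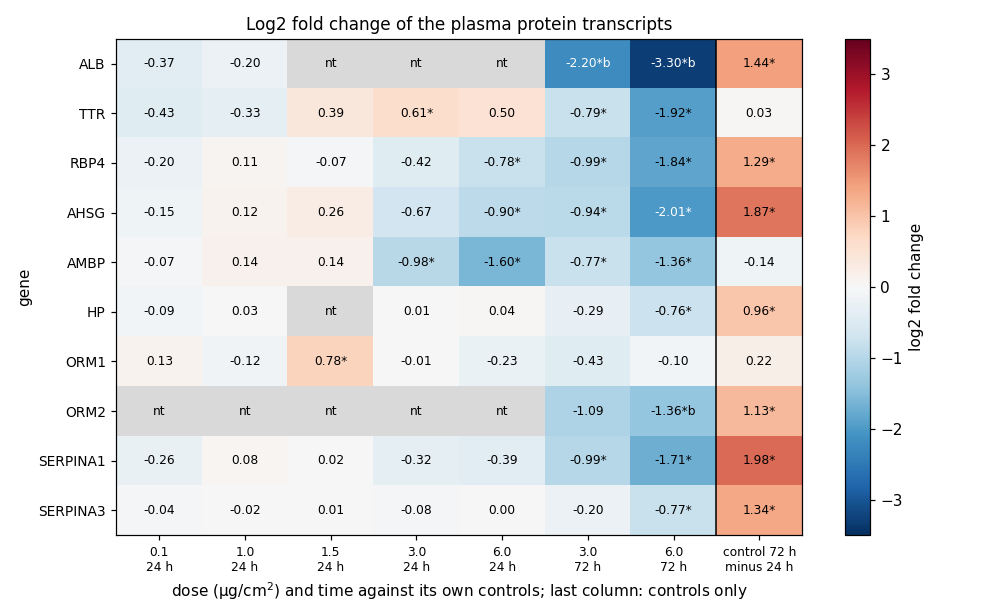
Log2 fold change of each gene (rows) at each dose and time against its own controls, and of controls at 72 h against 24 h (last column). Asterisks mark called genes, b marks values where every array of a group was too dim to stand well above background, and nt marks genes not tested. The column of 6.0 μg/cm2 at 72 h holds 9 asterisks, all with negative values.

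ALB could be followed only where it rose above background. Its level on the 72 h controls was −4.74, −4.94 and −4.86, and on the arrays at 3.0 μg/cm2 it was −6.65, −8.09 and −6.38. At 6.0 μg/cm2 it was −8.40, −7.74 and −8.28. None of the 6 exposed arrays was well above background and all lay below the controls. The difference is therefore a bound, of at least 3.1-fold lower at 3.0 μg/cm2 (adjusted p = 0.0179) and at least 2.97-fold lower at 6.0 μg/cm2 (adjusted p = 5.76e-05). These bounds hold for the processed signals only. Among the alternatives the difference at 6.0 μg/cm2 was as small as −0.84 on the log2 scale, which falls short of its bound. At 3.0 μg/cm2 the call was lost when any of the 3 controls was left out (adjusted p = 0.0608, 0.0661 and 0.0509 without replicate 1, 2 and 3) with the methods' t-test (adjusted p = 0.0625) and without a filter on dim probes (adjusted p = 0.0545), and with normexp the difference was −0.54, under the fold threshold. At 24 h ALB was not tested, since only 1 of 3 controls (−6.04, against −6.68 and −6.13 on the other arrays) and no exposed array was well above background. In the cells of the set with the lowest doses ALB was well above background on 11 of 12 arrays, with a level of −5.11 ± 0.11 (SD, n = 4) on controls, −5.49 ± 0.72 (SD, n = 4) at 0.1 μg/cm2 and −5.31 ± 0.15 (SD, n = 4) at 1.0 μg/cm2.

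TTR moved in opposite directions at both times. Its level at 24 h was −4.22, −4.38 and −4.57 on the controls, −3.87, −3.73 and −3.75 at 3.0 μg/cm2, and −4.06, −3.80 and −3.82 at 6.0 μg/cm2. All exposed arrays were above all controls. TTR was called higher at 3.0 μg/cm2, by 1.53-fold (log2 0.61, SE 0.10, adjusted p = 0.0119), whereas at 6.0 μg/cm2 the 1.41-fold difference (log2 0.50, SE 0.11, adjusted p = 0.0161) did not reach the fold threshold. The call at 3.0 μg/cm2 was lost without control replicate 3 (log2 0.52), without exposed replicate 2 (adjusted p = 0.0507) or 3 (adjusted p = 0.0504), with the methods' t-test (adjusted p = 0.0584), without a filter on dim probes (adjusted p = 0.0533), and with normexp (log2 0.36) or the series matrix values (log2 0.32).

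After 72 h the TTR levels were −4.50, −4.24 and −4.33 on controls, −4.97, −5.11 and −5.35 at 3.0 μg/cm2, and −6.26, −6.73 and −5.84 at 6.0 μg/cm2, where replicate 2 was not well above background. No exposed array reached the lowest control. TTR was lower by 1.72-fold at 3.0 μg/cm2 (log2 −0.79, SE 0.12, adjusted p = 0.00815) and by 3.78-fold at 6.0 μg/cm2 (log2 −1.92, SE 0.22, adjusted p = 0.000783). With normexp these differences were −0.32 and −0.70. The response at 72 h minus that at 24 h, tested as an interaction, was −1.39 (SE 0.16, adjusted p = 0.00105) at 3.0 μg/cm2 and −2.42 (SE 0.27, adjusted p = 0.000114) at 6.0 μg/cm2. Of the 10 genes TTR was the only one called in the interaction at 3.0 μg/cm2, where 3.25% of all 22615 probes were called lower, 2.06% higher and 5.31% in either direction.

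RBP4 is the plasma carrier of retinol. At 24 h its level was 0.26, −0.0011 and 0.01 on controls, −0.37, −0.35 and −0.26 at 3.0 μg/cm2, and −0.74, −0.74 and −0.60 at 6.0 μg/cm2. The 3 groups did not overlap. The difference from controls was −0.42 (SE 0.08, adjusted p = 0.0251) at 3.0 μg/cm2, under the fold threshold, and −0.78 (SE 0.09, adjusted p = 0.00125) at 6.0 μg/cm2, a 1.72-fold lower level. At 72 h the level was 1.37, 1.38 and 1.38 on controls, 0.36, 0.44 and 0.36 at 3.0 μg/cm2, and −0.51, −0.44 and −0.45 at 6.0 μg/cm2. The groups were again separate, and RBP4 was 1.99-fold lower at 3.0 μg/cm2 (adjusted p = 0.000368) and 3.59-fold lower at 6.0 μg/cm2 (adjusted p = 1.8e-05). The difference at 6.0 μg/cm2 was −1.84 (SE 0.06) on the log2 scale and −1.77 with normexp. The mean level at 6.0 μg/cm2 was −0.69 ± 0.08 at 24 h and −0.47 ± 0.04 at 72 h (SD, n = 3), while that of the controls was 0.09 ± 0.15 and 1.38 ± 0.0020 (SD, n = 3).

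AHSG, the gene of fetuin-A, had levels of −4.53, −4.49 and −4.66 on the 24 h controls, −5.86, −4.86 and −4.98 at 3.0 μg/cm2, and −5.34, −5.46 and −5.59 at 6.0 μg/cm2. Every exposed array lay below the controls. At 3.0 μg/cm2 the difference was −0.67 (SE 0.25, adjusted p = 0.141) with a wide spread between exposed arrays, and at 6.0 μg/cm2 it was −0.90 (SE 0.08, adjusted p = 0.000551), 1.87-fold lower. This call at 24 h rested on the background correction, since normexp gave 0.04 (adjusted p = 0.931), with a median of 0.10 over all probes in that fit, and the series matrix values gave −0.43. At 72 h the level was −2.73, −2.67 and −2.67 on controls, −3.39, −3.69 and −3.80 at 3.0 μg/cm2, and −4.40, −4.85 and −4.86 at 6.0 μg/cm2. The groups were separate and followed the dose. AHSG was 1.91-fold lower at 3.0 μg/cm2 (adjusted p = 0.00406) and 4.03-fold lower at 6.0 μg/cm2 (log2 −2.01, SE 0.13, adjusted p = 9.79e-05), or −1.11 with normexp.

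AMBP, whose product is cleaved into alpha-1-microglobulin and the protease inhibitor bikunin, was already lower at 24 h. Its level was −0.15, −0.20 and −0.30 on controls, −1.35, −1.19 and −1.07 at 3.0 μg/cm2, and −1.89, −1.83 and −1.73 at 6.0 μg/cm2. The 3 groups did not overlap, and AMBP was 1.97-fold lower at 3.0 μg/cm2 (log2 −0.98, SE 0.08, adjusted p = 0.00164) and 3.03-fold lower at 6.0 μg/cm2 (log2 −1.60, SE 0.07, adjusted p = 3.95e-05). At 72 h the levels were −0.36, −0.38 and −0.35 on controls, −1.17, −1.09 and −1.13 at 3.0 μg/cm2, and −1.60, −1.88 and −1.70 at 6.0 μg/cm2. AMBP was then 1.70-fold (adjusted p = 0.000747) and 2.57-fold lower (adjusted p = 8.39e-05). The difference between the responses at both times was 0.21 (95% interval −0.01 to 0.43, adjusted p = 0.151) at 3.0 μg/cm2 and 0.23 (95% interval −0.0020 to 0.47, adjusted p = 0.108) at 6.0 μg/cm2, and was not called.

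HP, the haemoglobin scavenger, was near its control level at 24 h, with differences of 0.01 (SE 0.08) at 3.0 μg/cm2 and 0.04 (SE 0.06) at 6.0 μg/cm2. At 72 h its level was −4.75, −4.85 and −4.86 on controls, −4.56, −5.21 and −5.55 at 3.0 μg/cm2, and −5.47, −5.50 and −5.78 at 6.0 μg/cm2. The arrays at 3.0 μg/cm2 overlapped the controls (−0.29, SE 0.24, adjusted p = 0.41), and those at 6.0 μg/cm2 lay below them, 1.70-fold lower (log2 −0.76, SE 0.10, adjusted p = 0.00128). With normexp the difference at 6.0 μg/cm2 was −0.40, under the fold threshold.

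The orosomucoid genes gave different results. ORM1 was not called at 3.0 or 6.0 μg/cm2 at either time, with differences of −0.01 and −0.23 at 24 h and of −0.43 (adjusted p = 0.0377, under the fold threshold) and −0.10 at 72 h. At 6.0 μg/cm2 and 72 h its levels were −4.58, −4.41 and −4.42, within the control range of −4.52 to −4.17 but for 1 array, and the 95% interval of the difference ran from −0.35 to 0.16. ORM2 was well above background on the 3 controls at 72 h (−5.46, −5.41 and −5.59), on 1 of 3 arrays at 3.0 μg/cm2 (−5.61, −6.73 and −7.38) and on none at 6.0 μg/cm2 (−6.64, −6.92 and −6.99). All exposed arrays lay below the controls. ORM2 was at least 1.88-fold lower at 6.0 μg/cm2 (adjusted p = 0.0002), and not called at 3.0 μg/cm2 (−1.09, SE 0.43, adjusted p = 0.109), although it was called in 4 of 16 alternatives: without exposed replicate 1 (−1.57, adjusted p = 0.00859), with quantile normalization (−1.15, adjusted p = 0.0224), with the series matrix values (−0.63, adjusted p = 0.0238) and with all arrays of the set in 1 fit (adjusted p = 0.0238). With normexp the value at 6.0 μg/cm2 was −0.42, under the fold threshold. Since both genes are near-identical copies, whether each probe reads only its own transcript was not tested.

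SERPINA1, the gene of alpha-1-antitrypsin, rose in the controls from −4.79, −4.98 and −4.98 at 24 h to −2.90, −3.07 and −2.84 at 72 h. At 24 h the exposed arrays lay below the controls by 0.32 at 3.0 μg/cm2 (adjusted p = 0.0617) and 0.39 at 6.0 μg/cm2 (adjusted p = 0.0238), under the fold threshold. At 72 h the level was −3.54, −4.00 and −4.25 at 3.0 μg/cm2 and −4.18, −5.06 and −4.71 at 6.0 μg/cm2, all below the controls. SERPINA1 was 1.99-fold lower at 3.0 μg/cm2 (log2 −0.99, SE 0.18, adjusted p = 0.0141) and 3.28-fold lower at 6.0 μg/cm2 (log2 −1.71, SE 0.21, adjusted p = 0.00121). At 3.0 μg/cm2 the call was lost without control replicate 1 (adjusted p = 0.0501), without exposed replicate 2 (adjusted p = 0.0539) and with the methods' t-test (adjusted p = 0.0507). The mean level was −4.65 ± 0.45 (SD, n = 3) at 6.0 μg/cm2 and 72 h and −4.92 ± 0.11 (SD, n = 3) on the 24 h controls, groups that were not compared by a test.

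SERPINA3, the gene of alpha-1-antichymotrypsin, was not called at 24 h by any of its 3 probes. At 72 h its main probe, A_33_P3399788, had levels of −1.30, −1.12 and −1.10 on controls, −1.50, −1.25 and −1.38 at 3.0 μg/cm2, and −2.10, −2.04 and −1.68 at 6.0 μg/cm2. The lower dose overlapped the controls and the higher dose did not. The difference was −0.20 (SE 0.09, adjusted p = 0.136) and −0.77 (SE 0.13, adjusted p = 0.00353), the latter 1.70-fold lower. The probes differed in size: A_23_P2920 had −0.64 (adjusted p = 0.007) and −2.06 (adjusted p = 2.72e-05), a 4.18-fold lower level, and A_23_P162918 had −0.59 (adjusted p = 0.0178, or 0.0651 with the replicate block) and −0.92 (adjusted p = 0.000905). In the controls A_23_P2920 rose by 5.43-fold from 24 h to 72 h, against 2.54-fold for the main probe and 1.98-fold for A_23_P162918. Whether the probes read different transcripts of the gene was not tested.

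**Figure D3:**
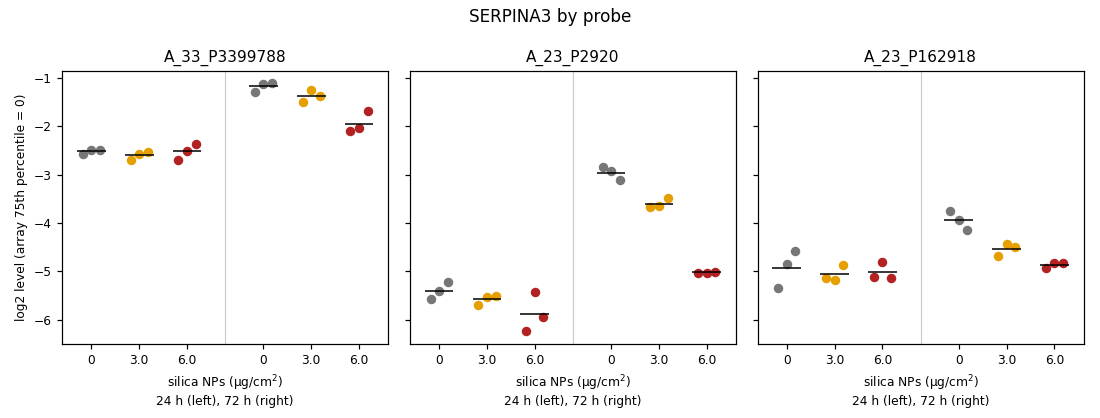
Log2 level of SERPINA3 (array 75th percentile at 0) by each of its 3 probes, on the 3 arrays of each group at 24 h (left of the line) and 72 h (right). Points are arrays and bars are group means. At 72 h and 6.0 μg/cm2 all 3 probes lie below the controls, A_23_P2920 by 2.06 on the log2 scale and the others by less.

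The difference between doses was tested directly. At 72 h, within a single scan day, 4 of 8 members tested were lower at 6.0 than at 3.0 μg/cm2, against 3.77% of all 21605 probes called lower, 1.08% higher and 4.85% in either direction. These were TTR (2.19-fold lower, adjusted p = 0.0257), AHSG (2.11-fold, adjusted p = 0.0111), RBP4 (1.81-fold, adjusted p = 0.00193) and AMBP (1.51-fold, adjusted p = 0.00845). TTR entered the test only through the arrays at 3.0 μg/cm2, since 2 of 3 at 6.0 μg/cm2 were well above background, and without it 3 of 7 members were lower. With the replicate block, whose numbers deviated together here, SERPINA1 was also called (−0.72, adjusted p = 0.0277, against 0.128 without it). In fits without 1 array the count ran from 1 to 5. The call of TTR was lost in 5 of these 6 fits, namely without replicate 1, 2 or 3 at 3.0 μg/cm2 or replicate 1 or 2 at 6.0 μg/cm2 (adjusted p from 0.0561 to 0.0892). That of AHSG was lost without replicate 2 at 6.0 μg/cm2 (adjusted p = 0.0534). That of AMBP fell under the fold threshold without replicate 2 at 3.0 (−0.57) or at 6.0 μg/cm2 (−0.52). RBP4 kept its call in all 6 and with normexp, which left no other member called. At 24 h only AMBP was called, 1.53-fold lower at 6.0 than at 3.0 μg/cm2 (adjusted p = 0.0116), with 0.944% of all 22138 probes lower, 0.696% higher and 1.64% in either direction. That call was lost without replicate 2 (adjusted p = 0.0529) or 3 at 3.0 μg/cm2 (−0.55), and without replicate 1 at 6.0 μg/cm2 (−0.58).

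The responses at both times were compared at 6.0 μg/cm2 as an interaction, in which 8 of the 10 genes were called lower at 72 h and 9.2% of all 22604 probes were called lower (7.93% higher, 17.1% in either direction). Besides TTR these were SERPINA1 (−1.32, SE 0.26), AHSG (−1.11, SE 0.16), RBP4 (−1.06, SE 0.10), HP (−0.80, SE 0.12) and SERPINA3 (−0.77, SE 0.17), with adjusted p from 5.22e-05 to 0.00476. ALB (−1.45, adjusted p = 0.00542) and ORM2 (−1.19, adjusted p = 0.0113) were called too, but every array at 6.0 μg/cm2 was too dim in both, so that these values are no measured differences. AMBP and ORM1 (0.13, SE 0.18) were not called. Of the 8, TTR alone had a positive difference with an adjusted p under 0.05 at 24 h, and its turn is seen in the plot of both responses.

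**Figure D4:**
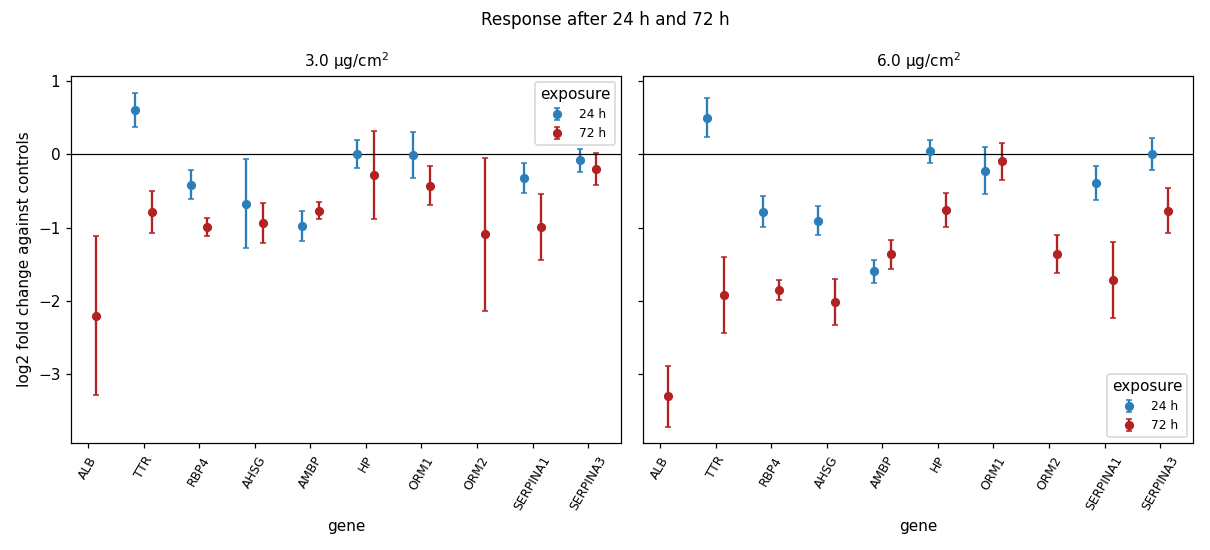
Log2 fold change against the controls of the same time for each gene tested, at 3.0 μg/cm2 (left panel) and 6.0 μg/cm2 (right panel), after 24 h (blue) and 72 h (red). Points are limma estimates from 3 arrays against 3 and bars are 95% confidence intervals. ALB and ORM2 were tested at 72 h only, where their exposed arrays were mostly not well above background. TTR lies above 0 at 24 h and below it at 72 h.

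At the doses of 0.1 and 1.0 μg/cm2 none of 9 members tested was called, and by limma 0% of all 21697 probes were at 0.1 μg/cm2 and 0.00949% of all 21079 at 1.0 μg/cm2, 0.00474% higher and 0.00474% lower. At an unadjusted p under 0.05 there was 1 member at 0.1 μg/cm2 (TTR, −0.43, SE 0.14) and 0 at 1.0 μg/cm2, and the methods' t-test also called 0 at both. The 95% interval of the difference was widest for ALB at 0.1 μg/cm2 (−1.08 to 0.34), and that of TTR ran from −0.76 to −0.11 at 0.1 μg/cm2 and from −0.70 to 0.04 at 1.0 μg/cm2. Fits on 2 arrays against 2 gave calls that were not alike between replicates 1 and 2 and replicates 3 and 4. All these arrays were scanned on the same day, and the split was made by the replicate numbers. At 0.1 μg/cm2 the 75th percentile signal was 1462 and 1386 on replicates 1 and 2, and 3163 and 3214 on replicates 3 and 4. On the controls it ranged from 1849 to 2107. The part of this difference in the calls was not tested. TTR was lower within replicates 3 and 4, at 0.1 μg/cm2 (−0.62, adjusted p = 0.00763) and at 1.0 μg/cm2 (−0.76, adjusted p = 0.00616), while within replicates 1 and 2 it differed by −0.24 and 0.10. HP at 0.1 μg/cm2 differed by 0.45 within replicates 1 and 2 and by −0.62 (adjusted p = 0.00655) within replicates 3 and 4. RBP4 at 0.1 μg/cm2 differed by −0.62 (adjusted p = 0.0231) within replicates 1 and 2 and by 0.22 within replicates 3 and 4.

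At 1.5 μg/cm2, 1 of 7 members tested was called, ORM1, where 2.3% of all 21020 probes were called higher, 0.0666% lower and 2.36% in either direction. Its level was −4.51, −4.78, −4.80 and −4.76 on controls, with replicate 2 not well above background, and −3.79, −3.79, −4.07 and −4.07 on exposed arrays. All exposed arrays were above all controls, by 1.72-fold (log2 0.78, SE 0.11, adjusted p = 0.00863). ORM1 entered the test only through the exposed group, which favours a higher value, and under a filter that asks for all arrays of both groups 0 members were called. Replicates 1 and 2 were scanned on another day than 3 and 4, and gave 0.86 (adjusted p = 0.147) and 0.71 (adjusted p = 0.012). Without replicate 2 in both groups the call was lost (0.71, adjusted p = 0.0782), as it was with normexp (0.31) and the series matrix values (0.33). TTR was above its controls on all 4 exposed arrays (0.39, SE 0.10, adjusted p = 0.0864) and was not called, and ORM2 was well above background on 1 of 8 arrays.

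Over the 18 arrays at the higher doses and their controls, some members varied together. The Pearson correlation of the log2 levels was 0.96 between AHSG and SERPINA1, 0.93 between AHSG and RBP4, 0.91 between HP and SERPINA1, and 0.90 between SERPINA1 and RBP4. AMBP correlated with RBP4 at 0.75 and with SERPINA1 at 0.49. TTR stood apart, with values from −0.37 (SERPINA3) to 0.28 (AMBP). These are descriptions over arrays that share the same 6 groups of dose and time, and the dim arrays of a probe enter them. Among 20100 probes well above background on all 18 arrays, those most like RBP4 were FBLN5 (0.998), FGA (0.994) and TLE2 (0.993). Those most like SERPINA1 were FAXDC2 (0.974), LSAMP (0.974) and TLE6 (0.973), and those most like AMBP were PHKB (0.982), PROC (0.981) and SGCA (0.978). For ALB, with only 4 of 18 arrays well above background, they were SERPINI1 (0.937), SYNDIG1 (0.927) and TSPAN13 (0.924).

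Other plasma proteins of the liver moved like the members in part. Of 22 further positive acute-phase proteins 15 were tested at 24 h and 16 at 72 h. At 6.0 μg/cm2 and 24 h, 3 were higher and 5 lower, with a median of −0.20 against −0.03 over all probes. SAA2 (at least 2.61-fold), SAA1 (3.35-fold) and PTX3 (4.56-fold) were higher, serum amyloid A and pentraxin being acute-phase proteins made outside the liver too, while the fibrinogen gene FGB was 3.36-fold lower. At 72 h 1 was higher and 11 lower (6.52% and 10.6% of all probes), with a median of −2.03 against 0.03. LBP, HPX and LRG1 entered this test only through the controls, which favours a lower value. SAA1, SERPING1 and PTX3 entered it only through the exposed arrays. PTX3 was at least 5.51-fold higher, whereas the fibrinogen genes FGG (9.31-fold) and FGB (7.70-fold) and the copper carrier CP (7.05-fold) were lower. In controls, 11 of 16 rose from 24 h to 72 h and 1 fell (13.4% and 6.71% of all probes). LBP and LRG1 entered that comparison only through the 72 h group, and SAA1, SERPING1 and PTX3 only through the 24 h group. Counts over genes well above background in both groups were not made for this list or the lists below.

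Of 22 further secreted liver proteins only 9 and 10 were tested. At 6.0 μg/cm2, 5 of 9 were lower at 24 h and 8 of 10 at 72 h, none was higher, and 9 of 10 rose in controls. SERPINA6, the cortisol carrier, fell by 4.45-fold and 4.87-fold, APOH by 4.00-fold and 5.86-fold, and ITIH2, whose product is joined with bikunin in plasma, by 1.98-fold and 3.37-fold. F2, prothrombin, was 1.75-fold lower at 24 h, and TF, transferrin, 24.7-fold lower at 72 h, with 1 of 3 exposed arrays well above background. TF at both times and KNG1 at 72 h entered the test only through the controls, which favours a lower value. KNG1 entered the comparison of controls only through the 72 h group.

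Of 13 liver-enriched transcription factors, 11 were tested at both times, and 7 were lower at 24 h and 8 at 72 h at 6.0 μg/cm2, with medians of −0.79 and −0.98. NR1H4, the bile acid receptor, was 2.30-fold lower at 24 h and 4.98-fold lower at 72 h, HNF4G at least 1.84-fold and 1.7-fold, and FOXA3 1.82-fold and 2.31-fold. NR0B2 was 2.03-fold lower at 24 h with 1 of 3 exposed arrays well above background, and HNF4A 2.27-fold lower at 72 h, also with 1 of 3. HNF4G, NR0B2 and HNF4A entered these tests only through the controls, which favours a lower value. In controls from 24 h to 72 h, 4 of 12 rose and 1 fell (13.4% and 6.71% of all probes). HNF4A entered that comparison only through the 72 h group and NR0B2 only through the 24 h group.

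Of 18 cytokines, receptors and mediators of the acute phase, 16 were tested at 24 h, of which 4 were higher and 2 lower at 6.0 μg/cm2 (3.94% and 5.35% of all probes), and 14 at 72 h, of which 1 was higher and 3 lower (6.52% and 10.6% of all probes), with medians of 0.26 and −0.13. IL6, the main inducer of acute-phase genes in hepatocytes, was 13.3-fold higher at 24 h (adjusted p = 2.49e-05) and higher at 72 h by 2.26 on the log2 scale (adjusted p = 4.32e-05), where 2 of 3 controls were well above background. TNF was at least 1.6-fold, the receptor OSMR 1.76-fold and CEBPB 1.65-fold higher at 24 h. At 72 h IL1R1 (1.85-fold), JAK2 (1.68-fold) and IL6ST (1.50-fold), a receptor subunit shared by the IL-6 family, were lower. Among partners and receptors of the members, 2 of 8 were lower at 24 h and 6 of 9 at 72 h with 1 higher. HABP2, a plasma protease, was at least 5.51-fold and at least 4.77-fold lower, ASGR1, which clears desialylated plasma proteins, 2.17-fold and 5.23-fold, and at 72 h also ELANE (4.42-fold) and ASGR2 (2.26-fold), each with 2 of 3 exposed arrays well above background. HABP2, ELANE and ASGR2 entered the test only through the controls, which favours a lower value. Hepatocyte markers outside the list were lower too, 2 of 5 tested at 24 h and 4 of 5 at 72 h, and their part in the results on the members was not tested.

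**Figure D5:**
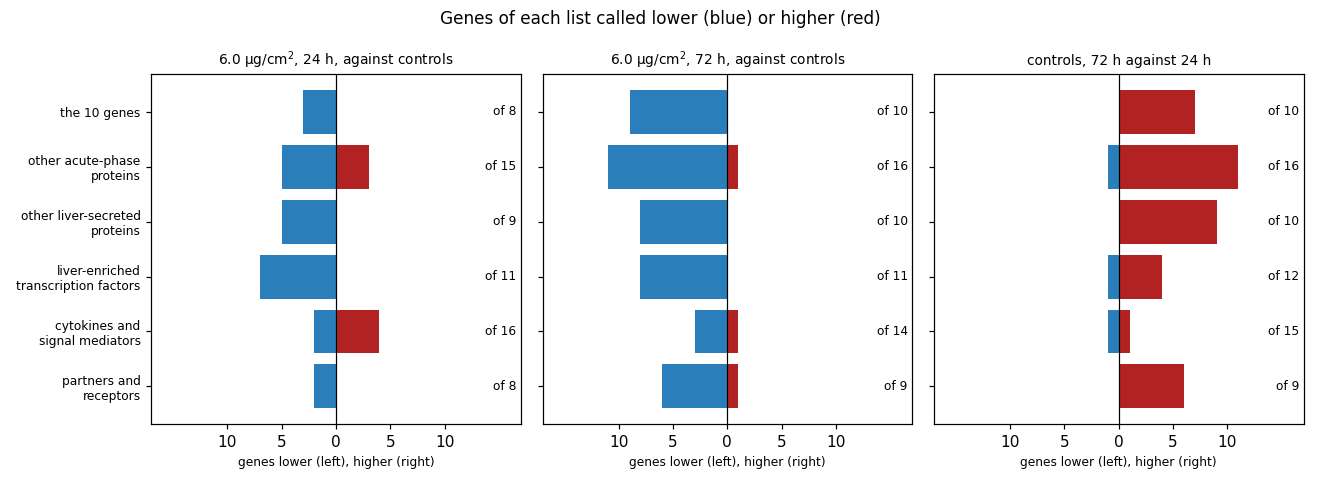
Number of genes called lower (bars to the left) or higher (to the right), in the 10 genes and in 5 further lists, for 6.0 μg/cm2 at 24 h and at 72 h and for controls at 72 h against 24 h. Numbers at the right are the genes tested. In the middle panel 9 of 10 plasma proteins are lower and the cytokines and mediators have 3 lower and 1 higher.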

How the data were processed

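The authors deposited the scanner output of 38 single-dye Agilent arrays. The processed signals are intensities, which the authors obtained from Feature Extraction 10.10.1.1 or 11.0.1.1 after background correction and without normalization between arrays. The deposited median signals are intensities without correction, and equal the 1690810 values of the series matrix. Promoter windows come from RefSeq's table.

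The re-analysis used limma 3.58.1 in R 4.3.3. Control spots and 0.612% of the others, marked as non-uniform or outliers, were left out, spots of a probe were averaged, and log2 values were set relative to the array's 75th percentile. Each comparison used limma on its own groups (4 groups for an interaction), over the probes that stood well above background in 1 or more groups on all arrays of the group. A call needed 1.5-fold or more and, after Benjamini-Hochberg adjustment, a p under 0.05. This departs from the methods' unpaired t-test, called the methods' t-test here and run as an alternative. Where a probe was well above background on no array of a group, the fold is a bound: the brighter group's mean was set against a floor, on each array of the dim group the probe's own value or the lowest signal well above background, whichever was higher. Such a bound holds for the processed signals only, and for ALB and ORM2 some alternatives gave smaller differences. The number of arrays and the signal over background limit the precision.

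A gene is given by its probe with the highest mean. Named genes outside the 10 are at most the 4 largest called changes of a list at 6.0 μg/cm2 at each time, and the 3 most correlated with ALB, AMBP, SERPINA1 and RBP4. Markers, and genes of a list that entered a test through 1 group only, are named besides. The members and lists were chosen with earlier results of these data known. Same-numbered samples shared a slide at 1.5 μg/cm2 and among the 24 h groups and 72 h controls of the higher doses, so that their numbers pair them there. At 0.1 and 1.0 μg/cm2 and in their controls, replicates 1, 2 and 3 shared a slide with the same number, but replicate 4 did not. The correlation of their deviations from the group means was over 0.1 in every pair only between 6.0 and 3.0 μg/cm2, at 24 h (0.25 to 0.29) and at 72 h (0.15 to 0.60). The group of the 72 h exposed arrays comes from the source name, since another label gives 24 h. The alternatives also included normexp background correction, quantile normalization, other filters, blocks for replicate numbers and slides, fits within replicates 1 and 2 or 3 and 4, and leaving out single arrays. The fits were tested on simulated data. Figures were drawn with matplotlib.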

Additional observations from a re-analysis of the deposited data

Results flagged for a closer look

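Among 60 combinations of a probe and a group of 4 arrays, 4 had 1 array far from the other 3, and chance alone marks about 1 in 20 groups. ORM2 at 1.0 μg/cm2 had −3.63 on replicate 2 and −6.85 to −6.44 on the others, and ORM1 on the same array was at −5.83, near its other replicates. HP was at −5.86 on replicate 2 of the controls of the lowest doses, ORM1 at −4.51 on replicate 1 of the controls of 1.5 μg/cm2, and RBP4 at 0.07 on replicate 4 at 1.5 μg/cm2.

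The response differed between 72 h and 24 h for TTR at 3.0 μg/cm2 (−1.39 on the log2 scale, limma interaction). At 6.0 μg/cm2 it differed for TTR (−2.42), ALB (−1.45), SERPINA1 (−1.32), ORM2 (−1.19), AHSG (−1.11), RBP4 (−1.06), HP (−0.80) and SERPINA3 (−0.77). In 2 of these, ALB and ORM2, no array at 6.0 μg/cm2 was well above background. The exposed arrays of 72 h were scanned on another day than all the other arrays of these fits, so scan day and response cannot be told apart.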

How the results depend on the processing

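The number of members called was within 1.5 times its main value in 209 of 252 alternative fits. Normexp background correction gave 0 in place of 1 at 1.5 μg/cm2, 1 in place of 2 at 3.0 μg/cm2 and 24 h, 4 in place of 7 in the controls, 0 and 1 in place of 1 and 4 between doses at 24 h and 72 h, and 2 in place of 1 and 5 in place of 8 for the interactions at 3.0 and 6.0 μg/cm2. The series matrix values gave 0, 1, 4, 0 and 1 for the same first 5 comparisons and 4 for the interaction at 3.0 μg/cm2. The methods' t-test gave 1 at 3.0 μg/cm2 and 24 h and 0 between doses at 24 h. No filter on dim probes gave 1 and 0 there. A stricter filter gave 0 at 1.5 μg/cm2, and 2 and 5 for the interactions. Without the fold threshold 5 were called at 6.0 μg/cm2 and 24 h, 2 between doses at 24 h and 2 in the interaction at 3.0 μg/cm2, where quantile normalization gave 3 and a trend in eBayes 2. Within replicates 1 and 2 there were 1 at 0.1 μg/cm2 and 0 at 1.5 μg/cm2, within replicates 3 and 4 there were 2 at 0.1 and 1 at 1.0 μg/cm2, and without replicate 2 in both groups 0 at 1.5 μg/cm2. AHSG at 6.0 μg/cm2 and 24 h turned from −0.90 to 0.0414 with normexp. The cause was not tested.

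In fits without 1 array the count of members ran from 1 to 2 at 3.0 μg/cm2 and 24 h, from 4 to 7 at 3.0 μg/cm2 and 72 h, from 0 to 1 and from 1 to 5 between doses at 24 h and 72 h, and from 1 to 3 for the interaction at 3.0 μg/cm2. It stayed at 0, 0, 1, 3, 9, 7 and 8 at 0.1, 1.0, 1.5 and 6.0 μg/cm2 (24 h), at 6.0 μg/cm2 (72 h), in the controls and in the interaction at 6.0 μg/cm2. At 0.1 and 1.0 μg/cm2 replicates 1, 2 and 3 shared a slide with the control of the same number, and replicate 4 did not. The replicate number stands for a shared slide at 1.5 μg/cm2, at 3.0 and 6.0 μg/cm2 against controls at 24 h, between these doses at 24 h and between the controls, and for no shared slide or scan day in the comparisons with controls at 72 h. The replicate block left 0, 0, 1, 2, 3, 6, 9 and 7 members called there, 1 and 5 between doses, and 1 and 8 for the interactions, and beside SERPINA1 between doses and 1 further SERPINA3 probe at 3.0 μg/cm2 and 72 h it changed no call. By the methods' t-test with the fold threshold, p unadjusted, 6 members at 3.0 μg/cm2 and 72 h and 9 at 6.0 μg/cm2 passed, and after adjustment 4 and 9. A random slide block was not run for either dose at 72 h against controls, since too few slides held more than 1 array. Over single members, 74 alternative values lost a call, 37 gained one and 1 reversed, of 2598. Over all probes, normexp gave 800 calls, 58.9% of them higher, in place of 2060 and 42.4% at 6.0 μg/cm2 and 24 h, where it moved the median of all probes from −0.03 to 0.10. The series matrix values lowered the share of higher calls from 38.2% to 18.2% at 6.0 μg/cm2 and 72 h, from 35.1% to 12.2% at 3.0 μg/cm2 and 72 h, and from 46.3% to 27.7% in the interaction at 6.0 μg/cm2, with medians of −0.11, −0.10 and −0.10, and quantile normalization lowered it from 66.7% to 51.0% in the controls. ALB and ORM2 are limited by signal over background.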
